A study of Solanum lycopersicum with 12 samples.

Results

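The comparison sets the epidermis and cortex (EC) of tomato roots against the stele (S), the central cylinder that holds xylem and phloem, in wild-type plants and in transgenic plants together. It used all 12 arrays of the series, 6 of EC and 6 of S. They fall into 4 groups of 3 arrays: EC of transgenic line 4 (L4), S of L4, EC of the wild type and S of the wild type (WT, var. Beta). L4 is a single transgenic line that carries AtHMA4, a zinc export pump of Arabidopsis, behind the constitutive 35S promoter of cauliflower mosaic virus, so that expression is not limited to 1 root sector. All plants, WT included, received 5 µM Zn. The labels give 15 days of exposure and an age of 25 days, and the study's methods give a shorter exposure. Roots of 6 plants were pooled in each of 3 independent experiments per genotype. The apical 1.5 cm was discarded, and sectors were cut by laser capture microdissection from the next 2.0 cm. The EC and S arrays of a genotype that carry the same replicate number were taken as 1 root pool, which gives 6 pools. The unit of comparison is therefore the EC minus S difference within a pool, on the log2 scale.

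The EC takes up water and mineral ions from the medium and moves them inward, and its outermost cells carry uptake transporters for phosphate, ammonium and iron. The stele unloads sucrose from the phloem and loads minerals into the xylem, and its pericycle keeps cells that can divide. Metallothioneins are small cysteine-rich proteins that bind metal ions, and plants carry several types that differ in the organs where they are expressed.

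Of 10209 probe sets, 108 array controls were set aside and 10101 were tested. A gene symbol was available for 909 probe sets, which stand for 802 genes, and the other probe sets enter the counts unnamed. The median of an array lay between 3.73 and 4.02 and its lower quartile between 2.37 and 2.81. Values below that quartile carry little information on level. L4 EC replicate 2 differed from the other 11 arrays, with an SD of 3.04 and a mean of 7.47 over 66 spike-in controls. The S arrays of replicate 3 came next, with spike-in means of 6.34 in L4 and 6.57 in WT. Their SDs were 3.34 and 3.32, and their medians, 3.77 and 3.73, were the lowest of all arrays. The RNA had been amplified before labelling, and the 3' control of actin exceeded the 5' control by 7.63 to 10.4 on the 12 arrays. EC minus S differences of the spike-in mean (0.10), of the 3' excess of actin (0.23), GAPDH (0.27) and ubiquitin (0.10), of the array median (0.0018) and of the array SD (-0.039) had exact two-sided sign-flip permutation p-values of 0.438 or more, where 6 pools allow no p below 0.0313.

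No probe set passed the test between EC and S. In a limma fit that took each root pool as its own block, 0 of 10101 probe sets (0%) were called, where a call needed a Benjamini-Hochberg adjusted p below 0.05 and a change of 1.2-fold or more. The smallest adjusted p was 0.188. An unadjusted threshold (p below 0.05, 1.2-fold or more) was passed by 427 probe sets (4.23%), of which 126 (1.25%) had higher values in EC and 301 (2.98%) had higher values in S. This split moved with the processing and with 1 pool, to 166 higher in EC and 235 higher in S after quantile normalization, and to 257 and 273 without L4 replicate 2. The EC value was above the S value in all 6 pools for 145 probe sets (1.44%) and below it in all 6 pools for 155 (1.53%). With signs at random, a share of 0.0313 of probe sets would agree in all 6 pools, both directions together. All 6 EC arrays lay above all 6 S arrays for 5 probe sets (0.0495%) and below them for 6 (0.0594%). The 95% interval of a difference had a median half-width of 0.70 on the log2 scale over all probe sets. Differences smaller than that could not be resolved for a typical probe set with 6 pools. The interval is not adjusted for the number of probe sets, so larger differences could also go uncalled. Because the differences below did not pass the test, they are given as measured values.

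The sectors did not separate the arrays. Over all probe sets, EC and S of the same pool had a median Pearson r of 0.941 (0.891 to 0.985 over 6 pairs), and arrays of the same genotype and sector had a median of 0.942 (0.869 to 0.974 over 12 pairs). These correlations are across genes, which are not independent replicates. The nearest array by r came from the same sector for 6 arrays and from the other sector for 6. The number of probe sets with at least a 2-fold difference between the sectors differed among pools. It was 2145, 3890 and 2829 in L4 replicates 1, 2 and 3, and 1022, 1923 and 2882 in WT replicates 1, 2 and 3. The EC minus S differences of any pair of pools had a Pearson r across probe sets of -0.26 to 0.29, with 6 of the 15 pairs below 0.

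**Figure D1:**
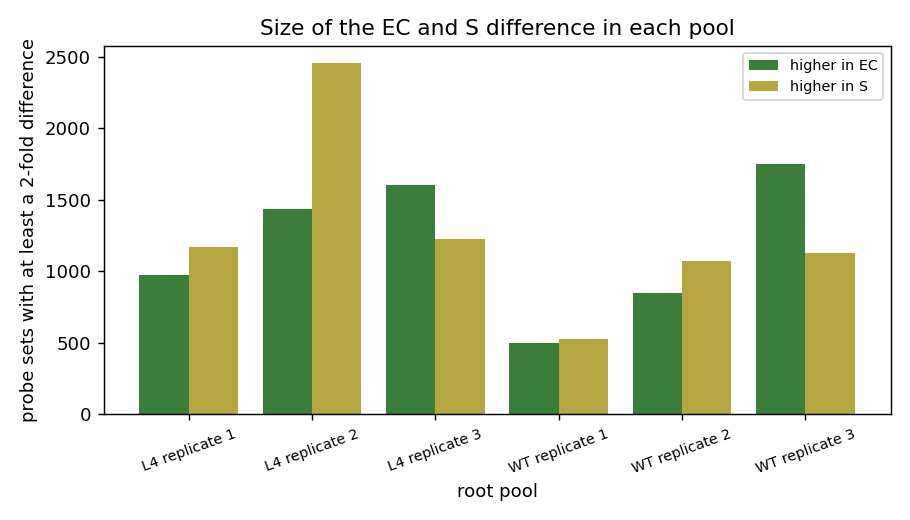
Number of probe sets (vertical axis) with at least a 2-fold difference between EC and S in each of the 6 root pools, L4 first, with separate bars for those higher in EC and those higher in S. L4 replicate 2 had the most, 1436 higher in EC and 2454 higher in S, and WT replicate 1 the fewest, 497 and 525.

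The 10 named genes per direction that had the smallest p are described next, none of them called. Each had an adjusted p of 1.00 from limma. Genes that were chosen after their values were seen are marked as such. A small p favours genes whose pools agree in sign, so the counts of pools given for the named genes add no separate support.

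Metallothionein genes gave the largest differences towards EC in this group. MT3 had 4.57, 9.40 and 10.8 (lowest, median and highest log2 value) on the EC arrays, against 2.42, 6.01 and 7.18 on the S arrays. Of the 6 EC arrays, 5 lay above every S array, and the exception was WT replicate 1. The mean difference of MT3 was 3.20 (standard error 0.59, 95% interval 1.77 to 4.62), or 9.16-fold, and EC was higher in 6 of 6 pools. MT2 had 7.34, 9.07 and 12.6 on the EC arrays, against 5.63, 6.99 and 10.3 on the S arrays. The MT2 ranges overlapped because pools differed in level, and within pools EC was higher in 6 of 6, by 2.24 (standard error 0.53). MT4, MTA and LEMT1, metallothionein genes chosen after their values were seen, lay at high levels in both sectors. MT4 averaged 14.2 ± 0.49 in EC and 14.3 ± 0.24 in S (SD, n = 6 each), MTA averaged 11.8 ± 1.07 in EC and 12.4 ± 0.834 in S, and LEMT1 averaged 13.3 ± 1.46 in EC and 13.4 ± 0.768 in S. Their differences were -0.046, -0.56 and -0.14, with 95% intervals of -0.53 to 0.44, -1.58 to 0.46 and -1.73 to 1.447, so each interval includes 0. The 3 further probe sets of MT4 were at -0.59, -0.36 and -0.57, with S higher in 4, 6 and 5 of 6 pools. Of the 7 genes in the list of metallothioneins and metal binding, 2 (MT3 and MT2) were past the unadjusted threshold and higher in EC and 0 were past it and higher in S. The copper chaperones CCS and CCH were at 0.14 and -0.13.

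Other genes with higher values in EC are given next. GPXle-1, a glutathione peroxidase gene, had 10.4, 10.8 and 11.2 on the EC arrays, against 9.79, 10.2 and 10.6 on the S arrays. Its difference was small, 0.60 (standard error 0.14), and present in 6 of 6 pools, with 4 EC arrays above every S array. Ve2, which encodes a receptor-like protein of the Verticillium resistance locus, had 4.55, 5.95 and 6.57 on the EC arrays, against 3.92, 4.46 and 5.36 on the S arrays, a difference of 1.33 (standard error 0.34) in 6 of 6 pools. The chitinase gene CHI17 was at 1.15 (standard error 0.34) in 5 of 6 pools, and both sectors of WT replicate 3 had 3.58. XTH3, a xyloglucan endotransglucosylase gene, had 6.26, 9.13 and 10.0 on the EC arrays, against 5.79, 6.91 and 8.45 on the S arrays. XTH3 was higher in EC in 6 of 6 pools by 1.65 (standard error 0.48), with the widest gap, 4.04, in L4 replicate 1. DES, a divinyl ether synthase gene of the lipoxygenase pathway, was at 1.53 (standard error 0.48) in 5 of 6 pools. ST1, Mdip1 and LEJA1, given by symbol only, were at 1.95, 2.03 and 1.55, in 5, 5 and 6 of 6 pools.

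Genes with higher values in S included regulators of the cell cycle and of light signalling. The gene krp2, an inhibitor of cyclin-dependent kinases, had 6.44, 6.92 and 8.45 on the EC arrays, against 7.42, 8.54 and 8.78 on the S arrays. Of the 6 EC arrays, 5 lay below every S array, and the difference was -1.22 (standard error 0.27) with S higher in 6 of 6 pools. DET1, a nuclear repressor of light responses, had 3.50, 4.92 and 5.39 on the EC arrays, against 5.08, 6.13 and 7.10 on the S arrays. DET1 differed by -1.35 (standard error 0.32), and again S was higher in 6 of 6 pools and 5 EC arrays lay below every S array. The linker histone gene H1 had 4.22, 6.64 and 7.53 on the EC arrays, against 7.51, 7.82 and 9.49 on the S arrays, a difference of -1.76 (standard error 0.71) in 6 of 6 pools. The gap in H1 was 5.13 in L4 replicate 2 and 0.14 in L4 replicate 3, so that its size rests on few pools. Its probe set may match several transcripts, and a second probe set gave -1.36 with S higher in 4 of 6 pools. CIF1, an inhibitor of invertase, had 9.42, 10.1 and 11.5 on the EC arrays, against 10.1, 11.7 and 13.2 on the S arrays, and was at -1.34 (standard error 0.45) with S higher in 6 of 6 pools. The ribonuclease gene rnalx was at -1.95 (standard error 0.64), with the opposite sign in WT replicate 2. MFP1, a filament-like DNA-binding protein, CEL8, an endoglucanase, the thioredoxin gene CITRX and the beta-galactosidase gene TBG6 were at -0.90, -1.05, -1.32 and -0.87, each with S higher in 5 of 6 pools. The ubiquitin-like modifier gene sumo was at -0.73, with S higher in 4 of 6 pools.

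Because L4 replicate 2 held the EC array that differed from the others, the differences were also computed without that pool. They were 3.03 for MT3, 2.52 for MT2, 0.59 for GPXle-1 and 1.09 for Ve2, and -1.18 for krp2, -1.29 for DET1 and -1.23 for CIF1. H1 moved to -1.08 and CITRX to -0.87.

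**Figure D2:**
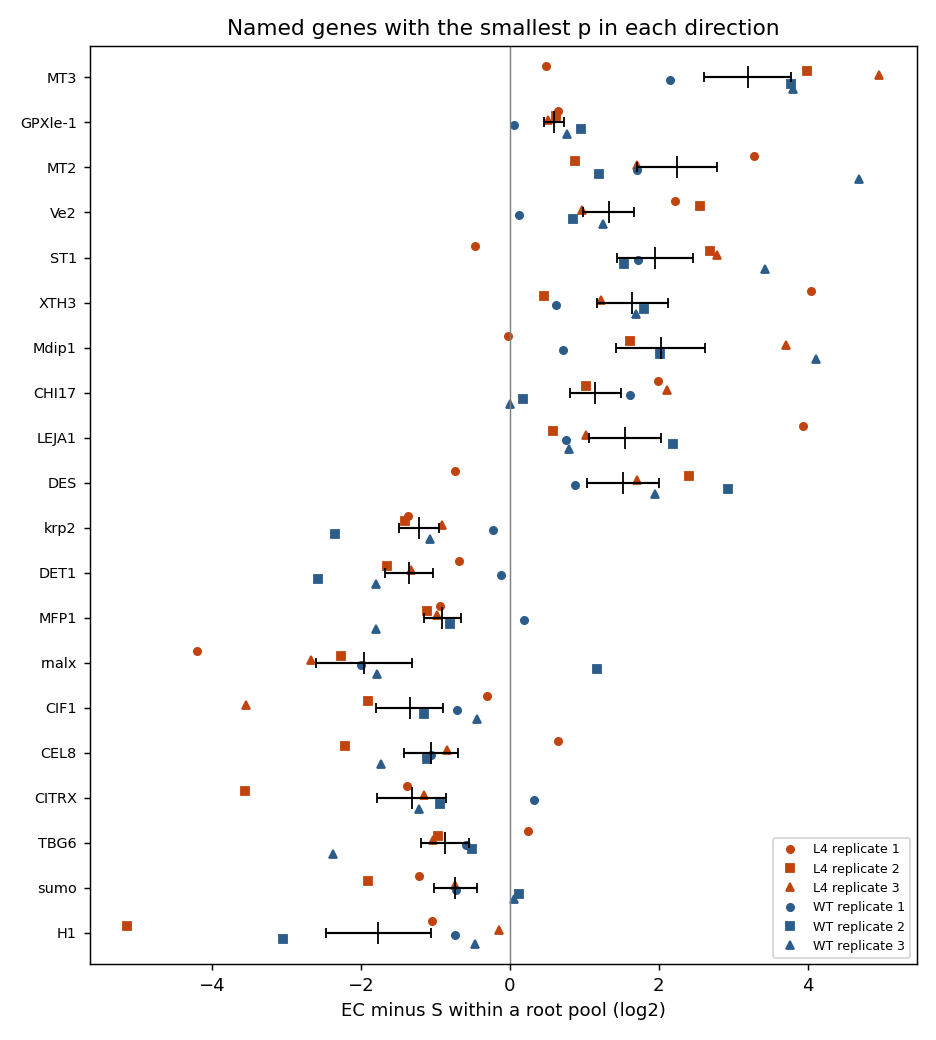
EC minus S difference within each root pool (horizontal axis, log2) for the 10 named genes per direction that had the smallest p, symbols by pool, L4 in red and WT in blue, with the mean and its standard error in black. All 6 pools lie to the right of 0 for MT3, GPXle-1, MT2, Ve2, XTH3 and LEJA1 and to the left of 0 for krp2, DET1, CIF1 and H1.

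**Figure D3:**
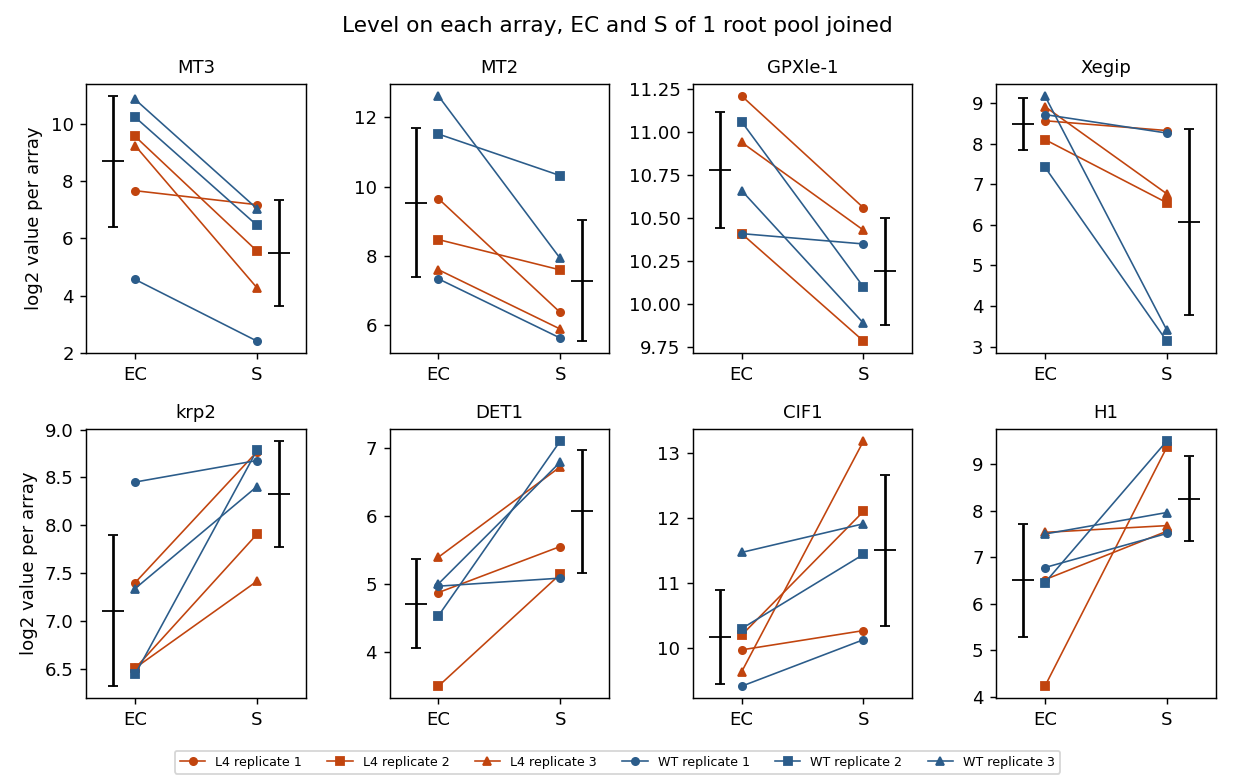
Log2 value on each array for 8 genes, EC at left and S at right in each panel, with arrays of 1 root pool joined and means ± SD (n = 6 each) in black. The EC points of MT3 lie above the S points of the same pool in 6 of 6 pools and those of krp2 lie below them in 6 of 6, while Xegip varied more among S arrays (SD 2.29) than among EC arrays (SD 0.632).

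The smallest p of all belonged to LOC544252, a gene known here by number only and chosen after its value was seen. It had 5.80, 6.45 and 6.95 on the EC arrays, against 7.09, 7.74 and 7.94 on the S arrays, so that the sectors did not overlap. Its difference of -1.19 (standard error 0.10, adjusted p = 0.188 from limma) ranged from -1.32 to -0.94 over the pools. Among probe sets without a symbol, the 2 that had the smallest p with higher values in EC were at 0.89 and 1.61, and the 2 with higher values in S were at -0.78 and -0.97. The signs held in 6 of 6 pools for each of these 4 probe sets, which the choice by smallest p favours.

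The labelled sectors were set against marker genes. Of 8 EC markers, 7 had higher means in EC and 1 in S, with a median difference of 0.57, and none was called. Their mean level on an array ranged from 5.16 to 5.93 in EC and from 4.57 to 5.22 in S. This mean was higher in EC in 6 of 6 pools, while no single marker was higher in EC in more than 5. PT1, a phosphate transporter gene of the root surface, had 4.82, 6.09 and 7.67 on the EC arrays, against 4.43, 5.00 and 6.31 on the S arrays, a difference of 1.102 (standard error 0.48) in 4 of 6 pools. A second phosphate transporter gene, PT2, was at 0.82 in 5 of 6 pools, but 9 of its 12 values lay below the lower quartile of their arrays. AMT1-2, an ammonium transporter gene, was at 0.58 in 4 of 6 pools. The expansin gene EXPA8 was at 1.67 (standard error 1.46) and higher in EC in only 3 of 6 pools, with 6.35 in L4 replicate 3 and -3.84 in WT replicate 3. Another expansin gene, exp18, was at -0.62, Dif54 at 0.57 and the extensin gene ext1 at 0.30. In RT-qPCR of WT roots, the study found EXP18 and EXP8 high in EC, with EXP18 very low and EXP8 almost undetectable in S. On the WT arrays, exp18 was at -0.32 and EXPA8 at 0.077. The ferric reductase gene FRO1 was at 0.0055, with 11 of 12 values below the lower quartile, so its values carry little information on level. In L4 replicate 3, PT1, PT2 and exp18 were at -0.23, -0.13 and -1.60, while EXPA8 was at 6.35. The mean of the EC markers in a pool can therefore rest on few genes. Of the 3 S markers, 2 had higher means in EC and 1 in S. The sucrose transporter gene SUT2 was at 0.57, and at 0.085 without L4 replicate 3. SUT4, of the same family, was at 0.032 with a second probe set at -0.33, and the sucrose synthase gene sus3 was at -0.0015 (95% interval -0.49 to 0.49). The mean level of the 3 S markers ranged from 6.45 to 7.88 in EC and from 6.67 to 7.804 in S.

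Markers of dividing cells had higher means in S over all pools, which 3 pools carried. Their mean level on an array ranged from 3.21 to 7.92 in EC and from 7.05 to 9.58 in S, and 5 of 5 had negative mean differences. The mean of the 5 markers was higher in S in 3 of 6 pools and higher in EC in WT replicates 1 and 2 and L4 replicate 3. CycA1, an A-type cyclin gene, had 2.45, 6.85 and 8.197 on the EC arrays, against 7.24, 8.25 and 10.0 on the S arrays. Its difference was -2.53 (standard error 1.12), made up of -6.89 in WT replicate 3, -4.93 in L4 replicate 2 and -3.65 in L4 replicate 1, with -0.28 to 0.47 in the other pools. CycA2, CDKB2, CDKB1 and CYCD3 were at -1.44, -1.77, -1.15 and -1.15, and each had its most negative difference, -4.58 or below, in WT replicate 3. Without WT replicate 3, CycA1 was at -1.66, CDKB2 at -0.90, CycA2 at -0.77, CDKB1 at -0.47 and CYCD3 at -0.24. In pooled tissue, fewer cells of a type and less RNA per cell cannot be told apart. Genes of the chlorophyll-binding proteins CAB4, CAB6A and CAB5, markers of green tissue, were at 1.61, 0.98 and 1.06. Their mean level on an array ranged from 2.85 to 8.63 in EC and from 2.60 to 8.13 in S. CAB4 was high in both sectors of WT replicate 1 (10.2 in EC and 9.60 in S), in L4 replicate 1 in EC alone (9.21 in EC and 4.90 in S) and in L4 replicate 2 in EC (7.41 in EC and 3.37 in S). The part of these cells in the other differences was not tested.

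**Figure D4:**
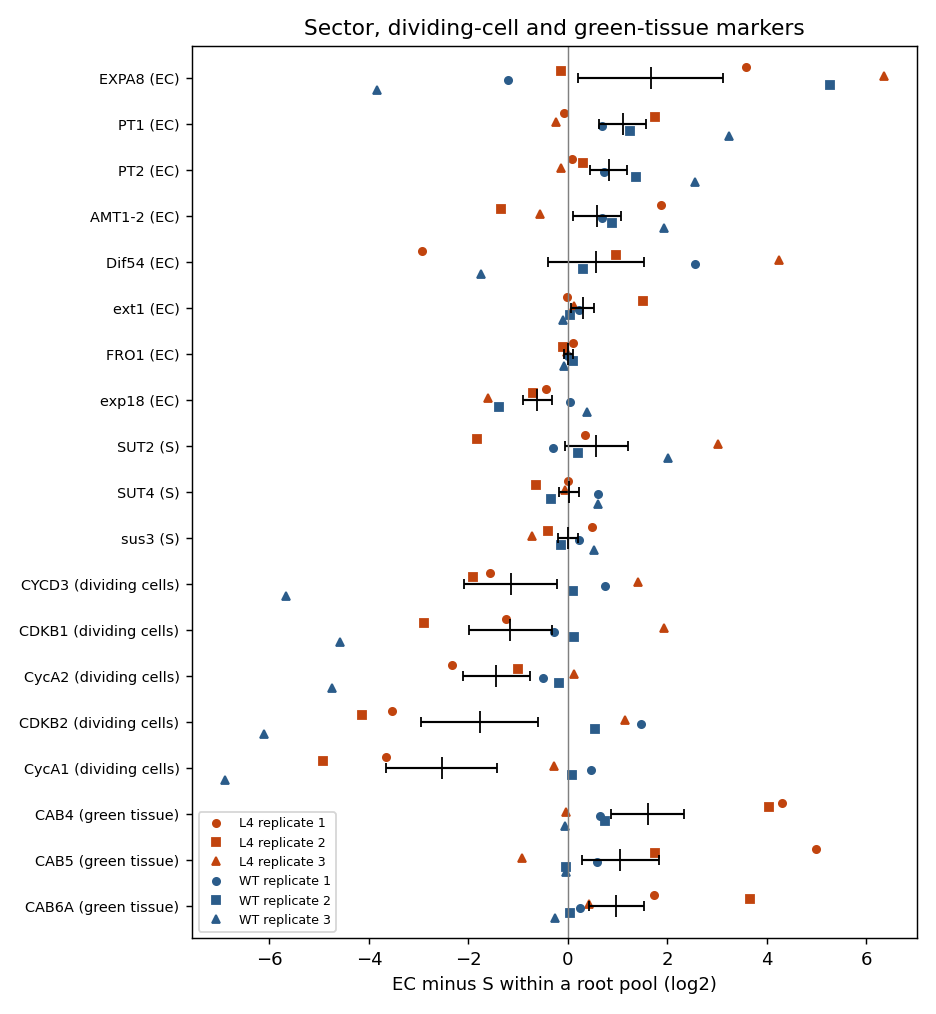
EC minus S difference within each root pool (horizontal axis, log2) for markers of EC, S, dividing cells and green tissue, symbols by pool, L4 in red and WT in blue, with the mean and its standard error in black. WT replicate 3 holds the most negative value of each of the 5 dividing-cell markers, and the S markers scatter on both sides of 0.

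Gene lists by role are described by their counts and medians, beside a median of 0.017 over all 10101 probe sets and 0.027 over the 802 named genes. The mean was higher in EC for 54.7% of all probe sets and for 55.2% of named genes. No member of any of the 22 lists was called. Past the unadjusted threshold, 2.87% of the named genes were higher in EC and 2.00% higher in S.

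The list furthest from 0 was that of cell cycle genes and histones. Of its 14 genes, 13 had higher means in S and 1 in EC, with a median of -1.15, and 2 (krp2 and H1) were past the unadjusted threshold. Without L4 replicate 2 the median was -0.90, without WT replicate 3 it was -0.40, and with array weights it was -0.29. The list shares its cyclin and kinase genes with the dividing-cell markers above. The median was negative in 6 of 6 pools, at -1.30, -1.57 and -0.14 in L4 replicates 1, 2 and 3 and -0.16, -0.046 and -2.26 in WT replicates 1, 2 and 3. PCNA, the sliding clamp of DNA replication, was at -1.46 (standard error 0.65) in this list, chosen after its value was seen.

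Lists of uptake and sugar metabolism had positive medians. The list of phosphate, potassium and ammonium uptake shares PT1, PT2 and AMT1-2 with the EC markers above. Its 4 genes were all higher in EC on average, with a median of 0.79. That median was 0.097 in L4 pools and 1.48 in WT pools, and the difference between genotypes in the list was not tested. By pool it was 0.24, 0.25 and -0.25 in L4 replicates 1, 2 and 3 and 0.69, 1.07 and 2.90 in WT replicates 1, 2 and 3. Of 14 genes of sucrose cleavage and sugar transport, 10 had higher means in EC and 4 in S (median 0.39, or 0.11 without L4 replicate 3). By pool the median was 1.48 in L4 replicate 3 and -0.13 to 0.57 in the other pools. HT3, a hexose transporter gene, was at 1.33 (standard error 0.54) in 5 of 6 pools, and the invertase gene LIN8, chosen after its value was seen, was at 2.35 (standard error 1.02), with 6.99 in L4 replicate 3 and -0.014 in L4 replicate 2. CIF1, the inhibitor of invertase, moved the other way. Metal transport and iron uptake held 5 genes with a median of 0.14. FER, a bHLH regulator of iron uptake, had 3.11, 6.42 and 9.23 on the EC arrays, against 3.07, 5.57 and 8.20 on the S arrays, and was at 0.92 (standard error 0.50) in 5 of 6 pools. The wide ranges of FER lay between genotypes, at 3.07 to 6.08 on WT arrays and 6.75 to 9.23 on L4 arrays. Its EC minus S difference was 0.23 in L4 and 1.60 in WT. The metal transporter gene Nramp2 was at 0.28 in 3 of 6 pools. The study reports that its array probes for FER and for NRAMP2 also recognise other sequences. Where RT-qPCR differed from the array, the study took RT-qPCR as valid. Aquaporins (3 genes) and proton and calcium pumps (3 genes) had medians of -0.13 and -0.15, with TIP at 0.40, Aqp2 at -0.43, the calcium pump gene LCA1 at -0.99 and the proton pump gene LHA2 at 0.33. Without L4 replicate 2 both medians turned positive, at 0.18 and 0.15, and LCA1 was at -0.30. Other pools moved them too. The aquaporin median was -0.60 without WT replicate 2 and 0.28 without WT replicate 3. The pump median was -0.47 without WT replicate 3 and 0.023 without L4 replicate 3.

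Cell wall genes went both ways. Of 26 genes for expansins, extensins and enzymes of xyloglucan, 16 had higher means in EC and 10 in S, with a median of 0.18, and 3 were past the unadjusted threshold, all higher in EC. They were XTH3, XET2 at 1.90 (standard error 0.62) in 5 of 6 pools, and Xegip, an inhibitor of xyloglucan-cleaving glucanases chosen after its value was seen. Xegip had 7.42, 8.64 and 9.17 on the EC arrays, against 3.14, 6.65 and 8.32 on the S arrays, and was at 2.41 (standard error 0.80) in 6 of 6 pools. Of 28 pectin and glucan hydrolase genes, 18 had higher means in EC and 10 in S (median 0.091, or -0.036 without L4 replicate 2), and the 2 past the unadjusted threshold, CEL8 and TBG6, were higher in S. Of 11 phenylpropanoid and peroxidase genes, 6 had higher means in EC (median 0.051), and the median turned negative, -0.024 to -0.043, without WT replicate 1, 2 or 3 or L4 replicate 2. The peroxidase gene CEVI-1 was at 1.34 (standard error 0.74) and at 0.66 without L4 replicate 1. DFR, of anthocyanin synthesis, was at 0.41, with 10 of 12 values below the lower quartile.

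Defence and oxylipin genes are read against the 55.2% of named genes with higher means in EC. Of 20 defence genes, 17 had higher means in EC and 3 in S, with a median of 0.34, and 1, CHI17, was past the unadjusted threshold. The median within a pool was 0.0078 to 0.087 in 5 pools and 0.35 in L4 replicate 2. Over genes, the median was 0.14 without L4 replicate 2, 0.35 in L4 pools alone and 0.04 in WT pools alone. PR1b1, a pathogenesis-related protein gene, was at 2.02 (standard error 1.01) in 4 of 6 pools. Its EC values ran from 7.09 to 9.48 and its S values from 3.83 to 10.4, so the ranges overlapped, and a second probe set was at 0.30. Of 12 lipoxygenase and jasmonate genes, 10 had higher means in EC (median 0.20). That median was 0.0081 without WT replicate 3 and 0.0041 without L4 replicate 1. By pool it was 1.38 in WT replicate 3 and -0.085 to 0.28 in the other pools. In this list 3 genes were past the unadjusted threshold and higher in EC. These were DES, opr2, of the oxophytodienoate reductase family, at 1.62 (standard error 0.65), and the lipoxygenase gene LOX1.1, chosen after its value was seen, at 1.31 (standard error 0.53). For each of these 3 genes EC was higher in 5 of 6 pools, the exception being L4 replicate 1. Of 13 antioxidant enzyme genes, 6 had higher means in EC and 7 in S (median -0.11), with GPXle-1 and DHAR2, a dehydroascorbate reductase gene, at 0.60 and -0.52.

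Lists of hormone and regulatory genes had medians near that of all probe sets over all pools. Some lay further off within single pools. Of 30 genes that make or perceive ethylene, 14 had higher means in EC and 16 in S (median -0.071). That median was 0.023 without L4 replicate 2 and 0.034 without WT replicate 2. It was -0.31 without WT replicate 3 and -0.26 without L4 replicate 1. In this list the ACC oxidase gene ACO4 was at -0.84 (standard error 0.37) and the ethylene receptor gene ETR6 at -0.49. Of 15 ethylene response factors, 5 had higher means in EC and 10 in S (median -0.045), with PTI5 at 1.03 and CBF1 at 1.28. By pool their median ran from -0.73 in WT replicate 2 to 0.70 in WT replicate 3. CBF1 was at 0.48 without L4 replicate 1. The auxin list (9 genes, median -0.074) held the response factor gene ARF3 at -0.90. It also held the Aux/IAA gene IAA17 at 0.99, which was 0.38 without L4 replicate 1. By pool the auxin median ran from -0.99 in L4 replicate 2 to 0.55 in WT replicate 3. Without WT replicate 3 it was -0.45. The 47 homeobox and other transcription factor genes had a median of -0.0034, with the knotted-type gene KN4 at 0.52 in 6 of 6 pools and NIF1 at -0.79 with S higher in 5 of 6. Kinases (20 genes) had a median of 0.083, or -0.0071 without L4 replicate 2, with the calcium-dependent kinase gene CDPK1 at 0.45 and SNF1 at -0.85. Isoprenoid and carotenoid genes (21) had a median of -0.077, with ZEP, zeaxanthin epoxidase, at -0.70 and ISPE at -0.19. Heat shock genes (10) had a median of 0.037, or -0.053 without L4 replicate 2 and -0.032 without WT replicate 3, with ER21 at 1.14 and MTSHP at 0.19. The 9 photosynthesis genes had a median of 0.30, which was 3.29 in L4 replicate 1 and -0.93 to 0.54 in the other pools.

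**Figure D5:**
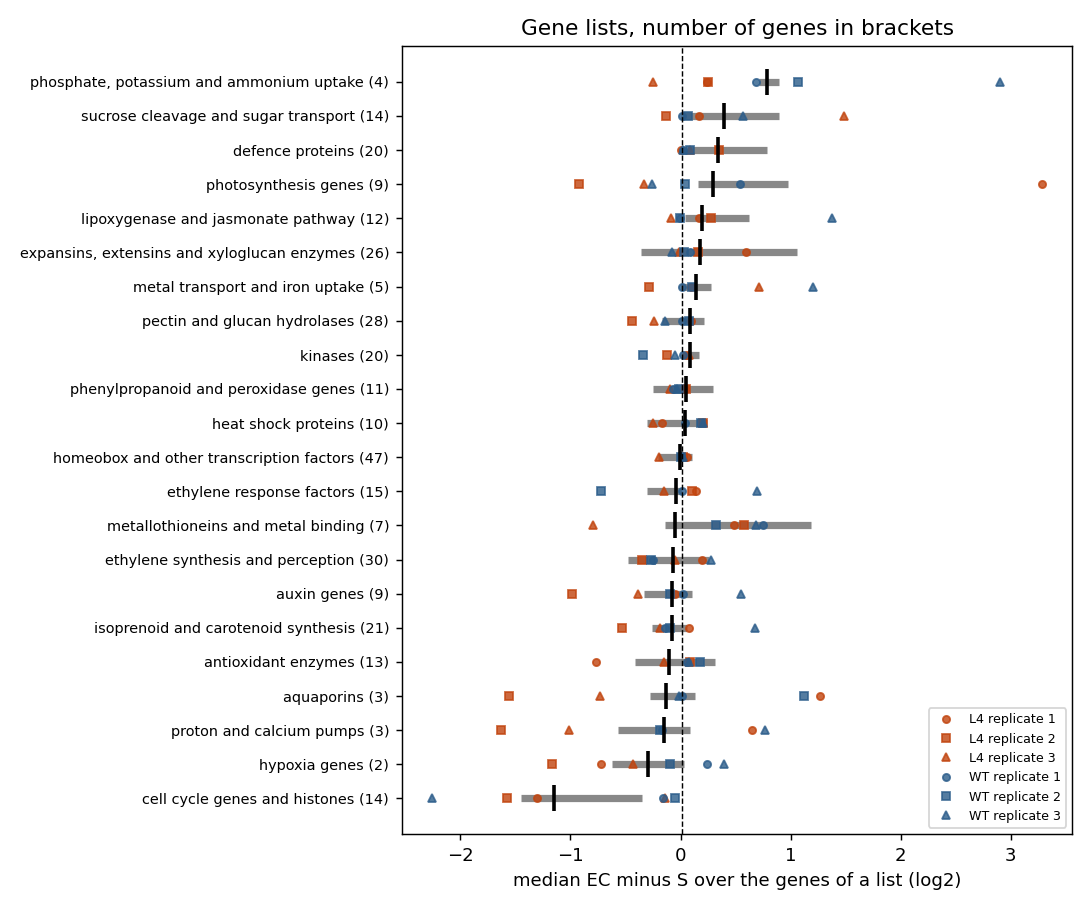
Median EC minus S difference over the genes of each list (black tick, horizontal axis, log2), with the quartiles of its genes as a grey bar and the median in each root pool as a symbol, L4 in red and WT in blue. The dashed line marks the median of all tested probe sets, 0.017, and the list of cell cycle genes and histones lies lowest, at -1.15.

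Whether the sector difference depended on the genotype was asked with the interaction of sector and genotype. Limma called 0 of 10101 probe sets (0%), with a smallest adjusted p of 0.983, and 242 (2.40%) were past the unadjusted threshold. Within the genotypes the same fit called 0 probe sets in L4 (smallest adjusted p = 0.623, 411 past the unadjusted threshold) and 0 in WT (smallest adjusted p = 1.00, 276 past it). Across probe sets, the EC minus S differences of L4 and WT, which share no array, had a Pearson r of 0.11 and a Spearman rho of 0.052. This is a description across genes, and r was 0.30 without L4 replicate 2 and -0.047 without L4 replicate 3. MT3 had nearly the same difference in both genotypes, 3.15 in L4 and 3.24 in WT, and so did krp2 (-1.23 and -1.21), GPXle-1 (0.59 and 0.60) and LOC544252 (-1.21 and -1.18). These genes were named for a small p over both genotypes, a choice that favours like differences in both. Their likeness therefore says nothing about other genes. Over all probe sets, 45.5% had the same sign in L4 and WT. The intervals of single genes do not exclude unequal differences. Genes further apart included GLB2, a haemoglobin gene, at -2.10 in L4 and 0.20 in WT, PT2 at 0.088 in L4 and 1.55 in WT, and EXPA8 at 3.27 in L4 and 0.077 in WT, with an adjusted p of 0.983 or more from limma for each difference. ADH2, which with GLB2 makes up the list of hypoxia genes (median -0.30), was at 0.55 in L4 and 0.17 in WT.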

How the data were processed

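RNA of laser-captured root sectors was amplified and hybridised to 12 GeneChip Tomato Genome Arrays. The log2 values per probe set are those the authors deposited. The sources used here do not name the summarisation or normalization behind them. All 12 value columns were used. Groups came from the sample labels.

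EC minus S was fitted with limma 3.58.1 in R 4.3.3 (lmFit, eBayes) blocked by root pool, which left 5 residual degrees of freedom, and no filter on signal, and the interaction with genotype likewise. P-values were adjusted over 10101 probe sets. Calls needed an adjusted p below 0.05 and 1.2-fold. The unadjusted threshold is a p under 0.05 with the same fold. The functions were tested on simulated data.

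The block rests on shared replicate numbers. Deviations of EC and S arrays of the same number from their group means correlated at 0.03, -0.16 and -0.27 in L4 and 0.63, 0.17 and 0.06 in WT, so the values do not bear out the pairing in every pool.

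Symbols came from the platform annotation. A gene is represented by the probe set with the highest mean. Named are the genes past the test, filled to 10 per direction by smallest p, the markers, and the called or 2 smallest-p members of each list. The comparison, the lists and their members were chosen with earlier results of these data known. The spike-in mean is over 66 control probe sets. Means over 45 and over 27 of them were also computed, and seen, before this definition was settled from the planned wording, and are given as added alternatives. Alternatives were the replicate block, array weights, a spike-in covariate, quantile normalization, median centring, a signal filter, other moderation and thresholds, and each pool left out. Figures were drawn with matplotlib.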

Additional observations from a re-analysis of the deposited data

Results flagged for a closer look

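A single pool or array stood apart from the other 5 of its kind for 7 of the 92 sets of 6 values examined, and chance flags about 1 in 20 such sets. XTH3 had an EC minus S difference of 4.04 in L4 replicate 1, KN4 one of 1.77 in the same pool, and ext1 one of 1.52 in L4 replicate 2. In L4 replicate 3, ACO4 was at -2.75 and MTSHP at 1.00. The array of L4 EC replicate 2 had a spike-in mean of 7.47 and an SD of 3.04, each far from the other EC arrays. Without L4 replicate 1, XTH3 was at 1.17 and KN4 at 0.27. Without L4 replicate 2, ext1 was at 0.055, and without L4 replicate 3, ACO4 was at -0.46 and MTSHP at 0.022.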

How the results depend on the processing

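The count of called probe sets stayed at 0 for EC against S and for the interaction in every setting run for each. A 2-fold threshold and an adjusted p under 0.10 were run for EC against S. Without the replicate block the smallest adjusted p was 0.635, with 364 probe sets past the unadjusted threshold, 126 higher in EC and 238 in S. That number was 427 with the block, 245 in L4 pools and 514 in WT pools each fitted alone, 993 with array weights (an estimate that stopped before it converged), 270 at a mean log2 of at least 4 and 280 without moderation. Leaving out a pool gave 302 to 530. The share higher in EC was 18.8% in L4 pools alone and 59.0% in WT pools alone, 23.7% without WT replicate 3, 48.5% without L4 replicate 2, 41.4% after quantile normalization and 29.5% in the full comparison. For the interaction, 242 became 536 with array weights, 109 at a mean log2 of at least 4 and 182 to 573 without a pool (560 without L4 replicate 1, 573 without L4 replicate 3). The correlation between genotypes ranged from -0.047 to 0.298 without a pool.

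Leave-outs of the correlation and of the technical measures, and the spike-in means over 27 and 45 controls, were added after seeing the data. As a covariate these spike-in means gave 625 and 622 probe sets past the unadjusted threshold, and the planned mean over 66 gave 618. Without a pool, the spike-in mean ranged from -0.258 to 0.334, the GAPDH excess from -0.370 to 0.878, the ubiquitin excess from -0.294 to 0.416, the array median from -0.0161 to 0.0197 and the array SD from -0.0705 to 0.0351.

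Of 80 named genes and probe sets, 73 kept their sign without each pool. Leaving out 1 pool moved 48 of the 80 differences by more than 1.5 times. The sign turned for Aqp2 (-0.768 to 0.229), Dif54 (-0.169 to 1.27), MT4 (-0.171 to 0.105), LEMT1 (-0.526 to 0.485), SUT4 (-0.0844 to 0.165), FRO1 (-0.0152 to 0.0270) and sus3 (-0.107 to 0.143). In WT pools alone it turned for GLB2 (0.195), LCA1 (0.0717), Aqp2 (0.288), LEMT1 (0.589) and sus3 (0.205). In L4 pools alone it turned for AMT1-2 (-0.0103), SUT4 (-0.227) and FRO1 (-0.0055). With array weights it turned for GLB2 (0.032), ADH2 (-0.101), MTA (0.311), Aqp2 (0.3796), MT4 (0.115), LEMT1 (0.529) and sus3 (0.135). Quantile normalization turned FRO1 (-0.0239) and sus3 (0.0332), and the spike-in covariate sus3 (0.0176). Of 374 list medians, 357 moved by less than the spread between pools, and 9 of 22 lists kept their sign without each pool. The moved medians belonged to phenylpropanoid genes (-0.167 at a mean log2 of at least 4 and 0.112 after quantile normalization at the extremes), defence genes (0.04 in WT pools alone), homeobox and other transcription factors (-0.105 without WT replicate 3) and expansins, extensins and xyloglucan enzymes (0.490 at a mean log2 of at least 4).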
